A study of Mus musculus with 12 samples.

Results

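The 10 genes described here, Spi1, Cebpa, Cebpb, Cebpe, Gfi1, Runx1, Irf8, Myb, Myc and Etv6, encode transcription factors that act in the progenitors of granulocytes and monocytes. They were chosen by symbol, and each matched 1 row, giving 10 of the 55450 genes in the count table. All 10 were among the 14346 genes with enough reads to be tested. RNA was measured by stranded total RNA sequencing after ribosomal RNA depletion, in 12 libraries of mouse donor bone marrow cells that lack lineage antigens and carry the stem cell factor receptor Kit (Lin- ckit+, abbreviated LK in the titles). The cells had been sorted from recipients of competitive marrow transplants, in which donor cells share the marrow with competitor cells. Donor genotypes were WT, Tet2 KO, Id1 KO and the combination Tet2 KO + Id1KO, called Tet2KO, Id1KO and dKO below, with 3 libraries each. Tet2 oxidises methylated cytosine in DNA and is often mutated in clonal haematopoiesis, and Id1 binds basic helix-loop-helix factors and blocks their contact with DNA. The allele design, the ages and sexes of the mice, the time after transplantation and any pooling of recipients are not given in the sources used here.

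These factors form a hierarchy that is well described in blood cells. Spi1 (PU.1) and Cebpa open the myeloid programme from multipotent progenitors, and Runx1 and the ETS repressor Etv6 are needed in the stem cells above them. Downstream, Gfi1 and Cebpe drive granulocyte maturation while Irf8 directs cells toward monocytes and dendritic cells, and Gfi1 and Irf8 are known for opposing one another. Cebpb serves emergency granulopoiesis, and Myb and Myc keep progenitors dividing. Small changes in dose of several of these genes are known to alter haematopoiesis, and in bulk RNA a change in level cannot be told apart from a change in the share of cells that carry the transcript.

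The targeted genes went against the labels. Tet2 RNA measured 98.6, 97.6 and 102 CPM (counts scaled to a common library size) in the libraries labelled WT and 127, 132 and 130 in those labelled Tet2KO, and dKO libraries had 121, 119 and 115 against 90.3, 92.5 and 93.3 in Id1KO. Id1 RNA was 1.24 to 1.76 CPM in WT, 3.61 to 4.35 in Tet2KO, 3.69 to 4.35 in Id1KO and 3.35 to 4.25 in dKO, so WT was low and the other 3 genotypes, Tet2KO included, overlapped. A null allele can still be transcribed and the deleted part is not known here, so gene totals check neither label, and each genotype below means the libraries so labelled. The titles give each genotype 1 sample number, and its 3 libraries differ only by a suffix. These libraries may therefore be repeats of 1 cell sample. Every p-value from fits to the separate libraries then measures only the spread between them, which may be technical. When the 3 libraries of each genotype were summed and 1 additive model was fitted to the 4 sums, 0 of the 10 genes passed for either label at an edgeR adjusted p under 0.05, where 1.62% of all genes passed for the Tet2 label and 0.0488% for the Id1 label. In that model 7 of the 10 had an unadjusted p under 0.05 for the Tet2 label (15.5% of all genes) and 3 for the Id1 label (9.95%). Its error comes from departures of the 4 sums from additive effects, and not from the spread between libraries.

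Estimated counts summed to between 15706407 and 19959183 per library. Library pairs of 1 genotype differed by a median of 1.18 to 2.10 times the sampling variance and pairs of different genotypes by 2.89 to 5.94 times, so no 2 libraries were copies of each other. Kit, Mpo and the other 5 progenitor markers were abundant everywhere, with summed levels from 9836 to 13270 CPM. Most of this sum was Mpo, with genotype means of 8428 to 11140 CPM, and the list includes Myb, itself among the genes described here. The depletion antigens together reached 38.0 to 48.8 CPM, while Cd3e had at most 1 count, Ly6g 2 and Cd8a 3. Erythroid precursor markers summed to 1083 to 1097 CPM in WT, 667 to 678 in Tet2KO, 1202 to 1231 in Id1KO and 1138 to 1154 in dKO, and megakaryocyte markers were highest in Id1KO, at 228 to 241 CPM against 160 to 183 elsewhere. Markers of lymphocytes summed to 156 to 223 CPM, lowest in dKO, and those of marrow stroma to 88.3 to 120 CPM, nearly all from Pecam1, which blood progenitors also express. No marker in any list was at 0 in all libraries. The part of these markers in the results was not tested.

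All 10 genes were well expressed, and their levels differed widely once divided by exon length. Over all 12 libraries the means per kilobase of exon were 94.9 CPM for Myb, 89.5 for Myc, 48.3 for Cebpa, 46.4 for Irf8, 39.2 for Spi1, 38.0 for Etv6, 23.5 for Cebpe, 22.3 for Gfi1, 12.5 for Runx1 and 9.79 for Cebpb. The proliferation factors Myb and Myc thus led, and the emergency factor Cebpb was last. Between genotypes the highest mean exceeded the lowest by 1.48 times for Cebpe, 1.34 for Gfi1, 1.33 for Irf8, 1.28 for Runx1 and 1.25 for Etv6, and by less for Cebpb, Spi1, Cebpa, Myc and Myb, the last at 1.11. Every shift below is therefore modest, and it could be measured because the libraries of a genotype lay close together. The largest coefficient of variation within a genotype was 1.21% for Myb and up to 10.4% for Cebpb, the gene with the fewest counts, 203 to 325 per library.

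**Figure D1:**
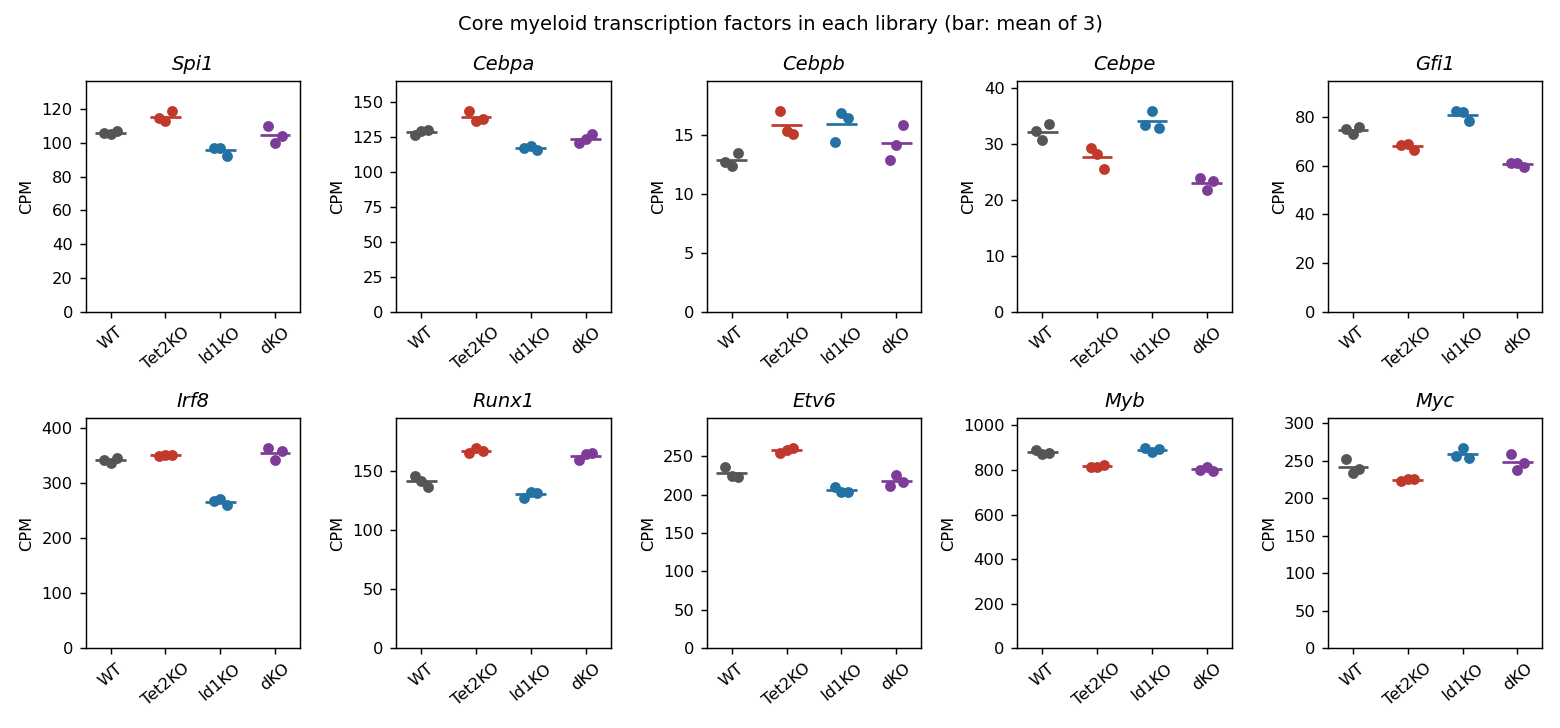
Level of each transcription factor in CPM (vertical axes, each starting at 0) in the 3 libraries of each genotype (points), with the genotype mean as a bar. Cebpe and Gfi1 are lowest in dKO, Irf8 is low in Id1KO alone, and Runx1 is high in both Tet2KO and dKO.

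In the test of each pair of genotypes, 9 of the 10 genes passed an edgeR quasi-likelihood adjusted p of 0.05 for Tet2KO against WT, where 32.8% of all genes tested did. For Id1KO against WT 8 of 10 passed against 15.0% of all genes, and for dKO against WT 4 of 10 against 19.2%. The comparison of dKO with Tet2KO called 6 of 10 (26.4% of all genes) and that of dKO with Id1KO 6 of 10 (19.3%). The calls ran in both directions. Tet2KO against WT gave 5 higher (16.6% of all genes) and 4 lower (16.2%), and Id1KO gave 3 higher (7.26%) and 5 lower (7.77%). For dKO against WT 1 was higher (10.2%) and 3 were lower (8.97%), against Tet2KO 1 was higher (13.1%) and 5 were lower (13.4%), and against Id1KO 3 were higher (10.6%) and 3 lower (8.70%). The median log2 fold change of the 10 genes was 0.08, -0.05, -0.04, -0.14 and 0.01 in that order, beside -0.00, -0.01, -0.00, 0.00 and -0.00 over all genes tested. The count for Id1KO against WT was 5 without the second WT, the first Id1KO or the second Id1KO library, and that for Tet2KO against WT was 6 without the third Tet2KO library. Calls over all genes fell in the same fits. For Id1KO against WT they went from 2156 to 1664, 1512 and 1787 in that order, and for Tet2KO against WT from 4699 to 3808. Non-overlap of the 3 libraries was counted apart from the test: 10 of the 10 genes separated Tet2KO from WT (46.0% of all genes), 8 Id1KO from WT (32.7%), 4 dKO from WT (33.1%), 7 dKO from Tet2KO (39.9%) and 8 dKO from Id1KO (33.2%). Several comparisons share libraries, so their values are set side by side and not treated as independent.

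**Figure D2:**
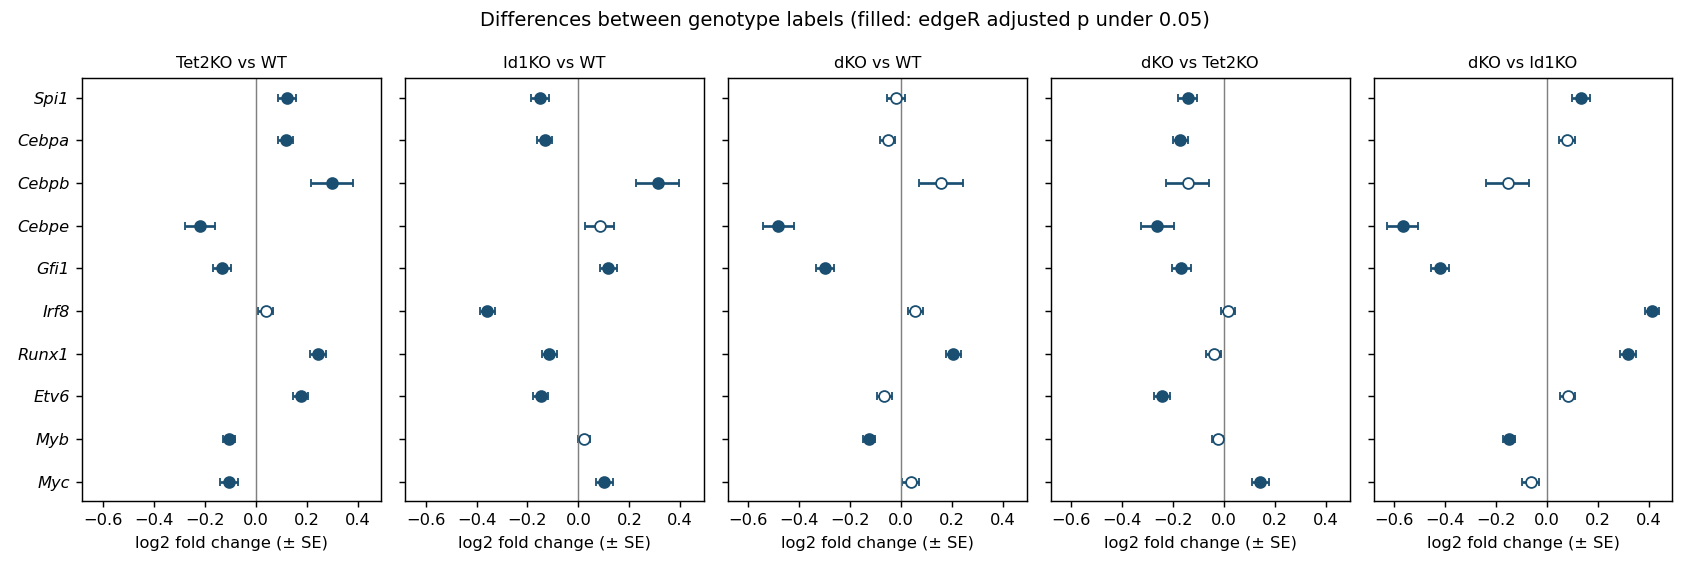
Log2 fold change of the 10 transcription factors (horizontal axis) in the 5 comparisons of 2 genotypes, with bars of 1 standard error; filled points passed an edgeR adjusted p of 0.05. Tet2KO and Id1KO shift Spi1, Cebpa, Etv6, Runx1, Gfi1 and Myc in opposite directions from WT, and the changes of Cebpe and Gfi1 in dKO exceed those in Tet2KO.

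Spi1 is the ETS factor on which all macrophage and much B-cell development depends. Its gene (ENSMUSG00000002111.8) lies on chromosome 2 at 91082390 to 91115756, plus strand, in the GENCODE M21 annotation of GRCm38, with 7 merged exons covering 2695 bases. Spi1 measured 106, 105 and 107 CPM in WT, 115, 113 and 119 in Tet2KO, 97.3, 97.0 and 92.6 in Id1KO, and 110, 99.8 and 104 in dKO. Every Tet2KO library was above every WT library and every Id1KO library below, while dKO spanned WT. The log2 fold change from WT was 0.12 ± 0.04 (SE) for Tet2KO (edgeR adjusted p = 0.00979), -0.15 ± 0.04 for Id1KO (0.0059) and -0.02 ± 0.04 for dKO (0.766). Spi1 therefore rose in one single genotype and fell in the other. In dKO it was lower than in Tet2KO by -0.14 ± 0.04 (0.00538) and higher than in Id1KO by 0.13 ± 0.04 (0.0129). The sum of the 2 single effects described dKO closely, since the departure from it was 0.01 ± 0.05 (0.93). Without the third Tet2KO library the adjusted p of Tet2KO against WT was 0.0527, and dKO against Id1KO had 0.0692 without the third Id1KO library and 0.0908 without the first dKO library.

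Cebpa, the basic leucine zipper factor required for the step from common to granulocyte-macrophage progenitor, followed the same course. The intronless gene (ENSMUSG00000034957.10; chromosome 7, 35119293 to 35121928, plus strand, 2636 exonic bases) read 126, 129 and 130 CPM in WT and 144, 137 and 138 in Tet2KO. Its Id1KO libraries had 117, 119 and 116 CPM and its dKO libraries 121, 123 and 127. Tet2KO was above WT in all libraries and Id1KO below. The log2 fold changes from WT were 0.12 ± 0.03 (SE; edgeR adjusted p = 0.00416) in Tet2KO, -0.13 ± 0.03 (0.00473) in Id1KO and -0.05 ± 0.03 (0.239) in dKO. From Tet2KO to dKO Cebpa fell by 0.17 on the log2 scale (SE 0.03, adjusted p = 0.000267), and from Id1KO to dKO it differed by 0.08 ± 0.03 (0.076), short of the threshold. None of these calls was lost when any 1 library was left out. The ratio of Spi1 to Cebpa per kilobase stayed narrow, from 0.781 to 0.894 over the 12 libraries, with genotype means of 0.81, 0.81, 0.80 and 0.83 for WT, Tet2KO, Id1KO and dKO.

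Etv6 is the ETS repressor that maintains marrow stem cells and that is rearranged in human leukaemias. Encoded on chromosome 6 at 134035700 to 134270158, plus strand (ENSMUSG00000030199.16, 10 merged exons, 5983 bases), it was measured at 236, 224 and 223 CPM in WT, 254, 258 and 261 in Tet2KO, 210, 203 and 203 in Id1KO, and 211, 225 and 217 in dKO. Tet2KO again stood above WT and Id1KO below it, without overlap. Etv6 rose in Tet2KO by 0.18 ± 0.03 log2 (SE, edgeR adjusted p = 0.000109) and fell in Id1KO by 0.15 (SE 0.03, 0.00203), and in dKO the value was -0.07 ± 0.03 (0.138). The step from Tet2KO to dKO, -0.24 ± 0.03 (5.82e-06), was the largest decrease of Etv6 in the 5 comparisons. From Id1KO to dKO the difference was 0.08 ± 0.03 (0.0646), which passed at 0.0398 without the first dKO library.

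Erythroid RNA moved beside these 3 genes. Of 13 erythroid markers, 12 were lower in Tet2KO than in WT and 12 were higher in dKO than in Tet2KO. Their part in the shifts of Spi1, Cebpa and Etv6 was not tested. Spi1 and the erythroid factor Gata1 antagonise one another, and the per-kilobase ratio of Spi1 to Gata1 was 1.86 ± 0.04 (SD, n = 3) in WT, 3.37 ± 0.12 in Tet2KO, 1.63 ± 0.03 in Id1KO, with 1.92 ± 0.07 in dKO. The ratio of Cebpa to Gata1 was 2.30, 4.16, 2.04 and 2.32 in the same order. Both ratios were highest in Tet2KO, where Gata1 fell by 0.73 on the log2 scale and Spi1 rose by 0.12 (Gata1 was singled out after its values were seen). An exact permutation test of 3 libraries against 3 cannot go below p = 0.1, so these ratios carry no test.

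Cebpe directs the formation of secondary granules in neutrophils and eosinophils, and it had the widest range of the 10 genes. The gene (ENSMUSG00000052435.7) lies on the minus strand of chromosome 14 at 54710360 to 54712174, with 2 exons and 1241 bases. It measured 32.2, 30.6 and 33.5 CPM in WT, 29.2, 28.1 and 25.5 in Tet2KO, 33.4, 35.8 and 32.7 in Id1KO and 23.9, 21.7 and 23.3 in dKO. The dKO libraries were below all 9 others, and Tet2KO lay between dKO and WT without touching either. From WT, Cebpe fell by 0.22 log2 in Tet2KO (SE 0.06, edgeR adjusted p = 0.00704) and by 0.48 in dKO (SE 0.06, 9.56e-06), and Id1KO differed by 0.08 ± 0.06 (0.351). In dKO it was 16.6% lower than in Tet2KO by the fitted value, a log2 change of -0.26 ± 0.06 (0.00433), and in the comparison with Id1KO it fell by 32.5%, or -0.57 ± 0.06 (1.09e-06). The effect carried by the Tet2 label differed between Id1 backgrounds, with an interaction of -0.35 ± 0.09 (0.00932). Without the third Tet2KO library the call of Tet2KO against WT was lost (0.0692).

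Gfi1, a zinc finger repressor needed for neutrophil production and for restraint of stem cell cycling, showed the same order of genotypes. The gene (ENSMUSG00000029275.18; chromosome 5, 107716657 to 107726036, minus strand, 8 merged exons, 3187 bases) gave 75.1, 73.0 and 75.7 CPM in WT and 68.7, 69.0 and 66.4 in Tet2KO. Id1KO had 82.4, 82.0 and 78.4 CPM and dKO 61.1, 61.1 and 59.5. The 4 genotypes did not overlap in any pair. Gfi1 fell by 0.13 log2 in Tet2KO (SE 0.04, edgeR adjusted p = 0.00549) and by 0.30 in dKO (SE 0.04, 3.68e-06) and rose by 0.12 in Id1KO (SE 0.03, 0.0211). It was -0.17 ± 0.04 lower in dKO than in Tet2KO (0.00178) and -0.42 ± 0.04 lower than in Id1KO (3.43e-08). The interaction was -0.28 ± 0.05 (0.000559), in the same direction as that of Cebpe. The rise in Id1KO was the weakest of these calls and was lost without the second WT, the first Id1KO or the second Id1KO library (0.0695 to 0.0833), with DESeq2 (adjusted p = 0.0815) and with no filter on low counts (0.0663).

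The RefSeq table lists 2 transcription starts for Gfi1, and the upstream one is shown because the letters that C/EBP factors recognise occur in it once and because Gfi1 moved beside Cebpe. It is the promoter window for GRCm38.p6 (chr5:107725756-107726055, minus strand, 250 bases before the start to 50 after), printed 5′ to 3′ with the match to TTGCNNAA in capitals.
Gfi1 promoter: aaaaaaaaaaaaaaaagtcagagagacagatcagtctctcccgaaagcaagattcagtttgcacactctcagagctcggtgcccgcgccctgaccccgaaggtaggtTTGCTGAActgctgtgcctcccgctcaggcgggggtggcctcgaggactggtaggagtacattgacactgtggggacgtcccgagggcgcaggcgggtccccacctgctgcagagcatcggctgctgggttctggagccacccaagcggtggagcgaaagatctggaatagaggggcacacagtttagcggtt
The match lies 143 bases upstream of the start. TTGCNNAA was searched on both strands and occurs in 10.8% of all 32851 promoter windows in the table. The window has 16 CpG dinucleotides, against a median of 7 over all windows. The window of the other start (chr5:107724294-107724593) holds 0 matches to TTGCNNAA and 10 CpG dinucleotides. A match is a stretch of letters and shows no binding.

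Across the 12 libraries log2 levels of Cebpe and Gfi1 had a Pearson correlation of 0.967, and Gfi1 was the gene most like Cebpe among 9784 genes compared. The libraries share genotype groups, so this describes their common pattern and carries no test. Markers of mast cells, basophils and eosinophils had summed levels of 382 to 398 CPM in WT, 352 to 358 in Tet2KO, 474 to 480 in Id1KO and 308 to 314 in dKO. Within that list the eosinophil granule genes Prg2 and Epx averaged 187 and 46.4 CPM in WT, 153 and 36.8 in Tet2KO, 254 and 68.7 in Id1KO and 131 and 35.6 in dKO (both were singled out after their values were seen). The sum follows these 2 genes, and single markers did not all share its order: 3 of the list were higher and 3 lower in Tet2KO than in WT, with Cpa3 at 53.5 CPM in WT and 60.3 in Tet2KO and Prss34 at 26.9 and 32.0. Mature neutrophil markers summed to 70.8 to 74.6 CPM in WT, 91.0 to 96.7 in Tet2KO, 74.7 to 79.5 in Id1KO and 93.9 to 105 in dKO, mostly from S100a8 and S100a9. In Tet2KO 3 of them were higher and 2 lower than in WT, with Camp at 2.09 CPM in WT and 1.09 in Tet2KO and Ngp at 3.75 and 2.67. The part of either cell type in the Cebpe and Gfi1 levels was not tested. The ratio of Cebpe to Cebpa per kilobase was 0.531 ± 0.024 (SD, n = 3) in WT, 0.420 ± 0.023 in Tet2KO, 0.616 ± 0.022 in Id1KO, with 0.395 ± 0.024 in dKO.

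The 10 known Cebpe targets on the list are granule and chemotaxis genes of neutrophils, and calls among them ran in both directions where Cebpe fell. In Tet2KO against WT 4 were higher and 3 lower, with a median log2 fold change of 0.18, and in dKO against Id1KO 4 were higher and 2 lower with a median of 0.32. The first count of 7 calls was 4 without the second WT or the third Tet2KO library. S100a9, a calcium-binding protein of neutrophils, rose by 0.71 log2 in Tet2KO and by 0.69 in dKO against Id1KO, and its partner S100a8 by 0.39 and 0.30. Ltb4r1, the leukotriene B4 receptor, rose by 0.18 in Tet2KO and fell by 0.25 in dKO against Id1KO. Among 7 relatives and corepressors of Gfi1, 3 fell in Tet2KO and 2 rose in dKO against Tet2KO. Those calls included Gfi1b, the erythroid and megakaryocytic relative of Gfi1. It fell by 0.89 log2 in Tet2KO and was 0.77 higher in dKO than in Tet2KO. Zfpm1, which is also on the list of erythroid and megakaryocyte factors, was called too, with -0.36 and 0.41. Ehmt2, a histone methyltransferase, passed in none of the 5 comparisons.

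Irf8, the factor that commits progenitors to monocytes and dendritic cells, passed the test against WT in Id1KO alone. The gene (ENSMUSG00000041515.10) spans 120736358 to 120756694 on the plus strand of chromosome 8, with 11 merged exons and 7055 bases. Its level was 341, 336 and 345 CPM in WT, 349, 350 and 351 in Tet2KO, 268, 270 and 260 in Id1KO and 364, 341 and 357 in dKO. All 3 Id1KO libraries were far below the other 9, which lay between 336 and 364. In Id1KO Irf8 fell by 21.9%, a log2 change of -0.36 ± 0.03 (SE, edgeR adjusted p = 2.27e-08). Tet2KO differed from WT by 0.04 ± 0.03 (0.301) and dKO by 0.06 ± 0.03 (0.18), the latter passing at 0.0356 without the second dKO library. From Id1KO to dKO Irf8 was 33.1% higher, a log2 change of 0.41 ± 0.03 (2.17e-09), and dKO and Tet2KO differed by 0.02 ± 0.03 (0.722). The interaction, 0.37 ± 0.04 (1.8e-06), was the only positive one called among the 10 genes. Each of these calls held without any 1 library.

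The first of 2 Irf8 starts in the table is shown, a CpG-rich window with ETS core letters, the family of its known activator Spi1. The sequence is chr8:120736108-120736407, plus strand, from the same RefSeq table for GRCm38.p6, with the capitals marking GGAA.
Irf8 promoter: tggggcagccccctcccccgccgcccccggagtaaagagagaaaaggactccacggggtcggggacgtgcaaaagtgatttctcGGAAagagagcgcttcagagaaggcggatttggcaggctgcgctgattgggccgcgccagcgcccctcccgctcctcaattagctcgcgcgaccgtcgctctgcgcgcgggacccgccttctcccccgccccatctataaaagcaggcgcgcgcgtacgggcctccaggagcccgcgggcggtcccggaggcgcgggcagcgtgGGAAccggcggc
The 2 matches on the printed strand start 166 bases before and 38 bases after the transcription start. GGAA is short and, on both strands, occurs in 96.0% of all windows, with a median of 3, so its presence here is common. The window holds 38 CpG dinucleotides at 70.0% G and C, and that of the second start (chr8:120738389-120738688) 8 at 54.7%.

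Partners and targets of Irf8 were read beside it. Among 12 interferon regulatory factors and partners, 5 were higher and 1 lower in Tet2KO than in WT (median 0.22), 3 fell in Id1KO (median -0.09) and 5 rose and 1 fell in dKO against Id1KO (median 0.17). Zeb2, a zinc finger factor of the dendritic and monocyte lineages, rose by 0.28 log2 in Tet2KO, fell by 0.12 in Id1KO and rose by 0.45 from Id1KO to dKO. Irf1, an interferon-induced activator, rose by 0.33 in Tet2KO and differed from WT by 0.02 in Id1KO, and Irf3 passed only for dKO against Id1KO, with -0.13. Irf5, Klf4 and the Runx1 relative Runx2 were picked out outside the naming rule, after the values were seen. They were chosen because they fell in Id1KO, by 0.36, 0.29 and 0.24 log2, and rose from Id1KO to dKO, by 0.62, 0.50 and 0.53. Of 10 known Irf8 targets 5 fell and 1 rose in Id1KO, with a median of -0.14, and 5 rose from Id1KO to dKO, a count that was 3 without any 1 Id1KO library and 2 without the first or the third dKO library. Cst3, a protease inhibitor of dendritic cells, was at -0.16 and 0.13 in those comparisons, the coagulation factor gene F13a1 at -0.16 and 0.21, and Csf1r, the receptor for macrophage colony-stimulating factor, at -0.15 and 0.34, all called. The target list also held calls where Irf8 itself was not called. In Tet2KO against WT 4 targets rose and 2 fell (median 0.19), and from Tet2KO to dKO 1 rose and 4 fell (median -0.07). For dKO against WT 2 rose and 2 fell (median 0.08). Markers of monocytes and dendritic cells summed to 1639 to 1705 CPM in WT, 1923 to 1972 in Tet2KO, 1535 to 1557 in Id1KO and 1843 to 1888 in dKO, and their part in the Irf8 level was not tested.

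Gfi1 and Irf8 are set against each other in the choice between granulocyte and monocyte fate, and their per-kilobase ratio moved most in Id1KO. It was 0.485 ± 0.003 (SD, n = 3) in WT, 0.430 ± 0.010 in Tet2KO, 0.673 ± 0.007 in Id1KO, with 0.379 ± 0.015 in dKO, and no 2 genotypes overlapped. Gfi1 rose and Irf8 fell in Id1KO, whereas in dKO Gfi1 alone fell relative to WT. The single genotypes thus lay on opposite sides of WT and dKO lay beyond Tet2KO.

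**Figure D3:**
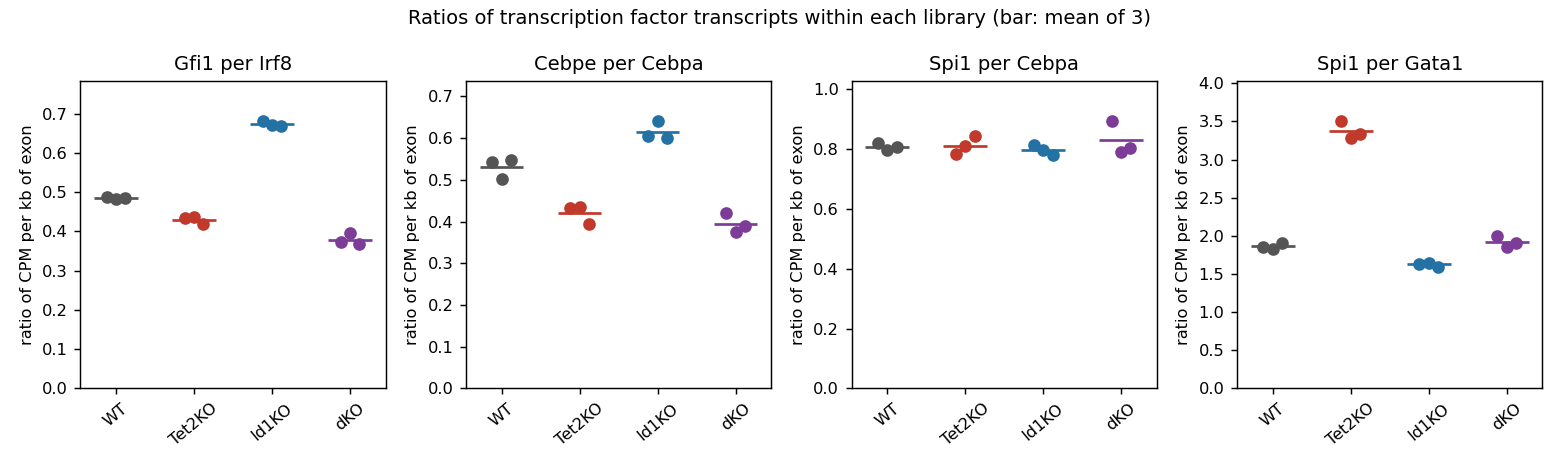
Ratios of levels per kilobase of exon (vertical axes) in the 3 libraries of each genotype (points) with the mean. Gfi1 to Irf8 is highest in Id1KO at 0.673 and lowest in dKO at 0.379, and Spi1 to Gata1 is highest in Tet2KO at 3.37.

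Runx1 is the DNA-binding partner in core binding factor, required for blood stem cells to form and later for platelets and lymphocytes. Its gene (ENSMUSG00000022952.17) runs from 92601466 to 92826149 on the minus strand of chromosome 16, with 9 merged exons and 12025 bases. Runx1 measured 146, 141 and 136 CPM in WT, 165, 169 and 167 in Tet2KO, 127, 132 and 131 in Id1KO and 159, 164 and 165 in dKO. Both genotypes with the Tet2 label lay above both without it, with no overlap. Runx1 rose by 0.25 ± 0.03 log2 in Tet2KO (SE, edgeR adjusted p = 3.02e-06), by 0.20 ± 0.03 in dKO against WT (5.52e-05) and by 0.32 ± 0.03 in dKO against Id1KO (2.2e-07). In Id1KO it fell by 0.11 (SE 0.03, 0.0148), a call lost without the first WT (0.0934) or the first Id1KO library (0.0950), and dKO and Tet2KO differed by -0.04 ± 0.03 (0.356). The rise with the Tet2 label did not differ measurably between Id1 backgrounds, with an interaction of 0.07 ± 0.04 (0.278). In the model of summed libraries Runx1 came nearest to the threshold of the 10 genes, at 0.29 ± 0.05 log2 for the Tet2 label and an adjusted p of 0.0605.

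Runx1 is transcribed from a distal and a proximal promoter far apart, and both windows are shown because gene totals add their products. They come from the same RefSeq table, on the minus strand of GRCm38.p6 at chr16:92826025-92826324 (distal) and chr16:92697280-92697579 (proximal). Capitals mark TGNGGT on either strand, a loose form of the letters that RUNX proteins recognise, with any base at N.
Runx1 distal promoter: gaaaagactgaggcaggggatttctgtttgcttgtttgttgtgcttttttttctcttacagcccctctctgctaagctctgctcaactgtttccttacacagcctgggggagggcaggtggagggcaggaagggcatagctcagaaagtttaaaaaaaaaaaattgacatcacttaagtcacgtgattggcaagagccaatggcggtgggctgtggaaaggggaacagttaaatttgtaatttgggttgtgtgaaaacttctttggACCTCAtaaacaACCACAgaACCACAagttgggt
Runx1 proximal promoter: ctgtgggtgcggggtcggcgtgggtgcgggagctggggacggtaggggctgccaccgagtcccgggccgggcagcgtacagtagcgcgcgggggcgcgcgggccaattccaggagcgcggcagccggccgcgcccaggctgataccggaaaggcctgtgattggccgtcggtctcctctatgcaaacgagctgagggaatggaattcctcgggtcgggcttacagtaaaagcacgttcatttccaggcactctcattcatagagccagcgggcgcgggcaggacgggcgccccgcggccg
The distal window holds 3 matches, which begin 16, 28 and 36 bases after the start, and the proximal window none of these letters. TGNGGT was found on either strand in 45.8% of all windows. The windows differ in base composition as well, with 2 CpG dinucleotides and 45.0% G and C in the distal and 35 and 69.0% in the proximal window. Gene totals cannot say which start the added RNA came from.

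Cofactors of Runx1 shifted in Tet2KO as well. Of 8 relatives and cofactors tested, 6 were higher in Tet2KO than in WT and none lower (median 0.15), and 3 rose from Id1KO to dKO. Cbfb, the partner that stabilises Runx1 on DNA, rose by 0.15 log2 in Tet2KO and by 0.13 in Id1KO, where Runx1 fell. The corepressors Tle3 and Sin3a rose by 0.15 and 0.09 in Tet2KO. The ratio of Runx1 to Cbfb per kilobase was 0.287 in WT, 0.306 in Tet2KO, 0.242 in Id1KO, with 0.311 in dKO. Of 8 known Runx1 targets tested, 6 rose and 1 fell in Tet2KO (median 0.14), and 2 rose and 4 fell in Id1KO (median -0.10). From Id1KO to dKO, where Runx1 rose most, 3 rose and 2 fell (median 0.07). From Tet2KO to dKO, where Runx1 was not called, 2 rose and 5 fell (median -0.115), and for dKO against WT 2 rose and 1 fell (median 0.04). The list includes Spi1, itself among the genes described here. The platelet chemokine Pf4 was among those that rose in Id1KO, by 0.82 log2, and it was lower in dKO than in Id1KO by -0.68.

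Cebpb supports granulocyte output under stress and replaces Cebpa in that role. Its single-exon gene (ENSMUSG00000056501.3; chromosome 2, 167688915 to 167690418, plus strand, 1504 bases) was the least abundant, with 12.7, 12.4 and 13.5 CPM in WT, 17.0, 15.3 and 15.1 in Tet2KO, 14.4, 16.9 and 16.5 in Id1KO and 12.9, 14.2 and 15.8 in dKO. WT was lowest and did not overlap either single genotype, and dKO overlapped all others. Cebpb rose by 0.30 ± 0.08 log2 in Tet2KO (SE, edgeR adjusted p = 0.00956) and by 0.31 ± 0.08 in Id1KO (0.015), while dKO differed from WT by 0.16 ± 0.09 (0.226), from Tet2KO by -0.14 ± 0.09 (0.237) and from Id1KO by -0.15 ± 0.08 (0.222). The interaction was -0.45 ± 0.12 (0.0141). Both rises depended on single libraries: the first had 0.0565 without the first Tet2KO library, and the second was lost without the second WT, the second Id1KO or the third Id1KO library (0.0564 to 0.0699). Tmem189 overlaps 312 exonic bases of Cebpb on the opposite strand at a mean of 23.9 CPM and rose in Tet2KO by 0.15 (0.0467). The strand setting of the counting is not given in the sources used here, so reads of the overlap could be split between the 2 genes. The remaining overlaps, antisense genes of Gfi1, Myb, Etv6, Runx1 and Cebpa, had mean levels of 1.03 CPM or less.

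The balance of Cebpa to Cebpb per kilobase was 5.71 ± 0.23 (SD, n = 3) in WT, 5.03 ± 0.20 in Tet2KO, 4.22 ± 0.36 in Id1KO, with 4.97 ± 0.38 in dKO. It was highest in WT and lowest in Id1KO, and dKO overlapped Tet2KO. Of 6 other members and regulators of the C/EBP family tested, 1 rose and 3 fell in Tet2KO. Cebpg, a partner that lacks an activation domain, rose by 0.19 log2 in Tet2KO and 0.29 in Id1KO, as Cebpb did. Cebpd did not pass in any of the 5 comparisons, with values from -0.16 to 0.15. Trib2, which promotes destruction of Cebpa protein, fell by 0.66 in Tet2KO and was 0.44 higher in dKO than in Tet2KO (singled out after its values were seen).

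Myb holds progenitors in an immature, dividing state, and it had the most RNA of the 10 genes. The gene (ENSMUSG00000019982.15; chromosome 10, 21124935 to 21160984, minus strand, 15 merged exons, 8933 bases) measured 888, 871 and 878 CPM in WT, 814, 814 and 824 in Tet2KO, 900, 880 and 896 in Id1KO and 801, 815 and 797 in dKO. Tet2KO and dKO lay below WT and Id1KO in every library. Myb fell by 0.10 log2 in Tet2KO (SE 0.02, edgeR adjusted p = 0.00194), by 0.13 in dKO against WT (SE 0.02, 0.000632) and by 0.15 in dKO against Id1KO (SE 0.02, 0.000131). Id1KO differed from WT by 0.02 ± 0.02 (0.611) and dKO from Tet2KO by -0.02 ± 0.02 (0.527). Myb ran opposite to Runx1, with a Pearson correlation of -0.926 over the 12 libraries, given as a description of libraries that share groups. Of 6 relatives and coactivators of Myb, 2 rose and 1 fell in Tet2KO, and 2 rose and 0 fell from Id1KO to dKO. The coactivators Ep300 and Crebbp rose where Myb fell, by 0.43 and 0.38 log2 in Tet2KO and by 0.31 and 0.27 in dKO against Id1KO. The relative Mybl2 was lower in Tet2KO, as Myb was, with means of 96.25 CPM in WT and 87.36 in Tet2KO. Its means were 98.26 in Id1KO and 95.64 in dKO.

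Myb fell in Tet2KO, whereas calls among its known targets ran both ways there. Of 9 known targets, 5 rose and 3 fell in Tet2KO (median 0.11), 1 rose and 5 fell in Id1KO (median -0.10) and 1 rose and 5 fell in dKO against Tet2KO (median -0.19). Myb itself was not called in the last 2 of these. In the other comparisons where Myb fell, 1 target rose and 5 fell in dKO against WT (median -0.08), and 2 rose and 1 fell in dKO against Id1KO (median 0.05). Mpo, the granule enzyme myeloperoxidase, rose by 0.17 log2 in Tet2KO, fell by 0.23 in Id1KO and was -0.39 lower in dKO than in Tet2KO. Cd34, a progenitor surface sialomucin, had 0.09, -0.28 and -0.32 in the same comparisons, all called. Both are also regulated by other factors named here, and Mpo is on the Cebpa and Runx1 lists too.

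Myc, the growth and ribosome biogenesis factor, lies on chromosome 15 at 61985391 to 61990374, plus strand (ENSMUSG00000022346.15, 4 merged exons, 2717 bases). It read 252, 234 and 239 CPM in WT, 222, 226 and 226 in Tet2KO, 256, 267 and 254 in Id1KO and 258, 238 and 247 in dKO. Tet2KO was lowest, Id1KO did not overlap WT, and dKO overlapped both WT and Id1KO. The log2 fold changes from WT were -0.10 ± 0.03 (SE; edgeR adjusted p = 0.0211) in Tet2KO, 0.10 ± 0.03 (0.0433) in Id1KO and 0.04 ± 0.03 (0.487) in dKO. Neither single-genotype call was stable. That of Tet2KO was lost without the first WT library (0.144) or any 1 Tet2KO library (0.0611 to 0.0699), and that of Id1KO without the second or the third WT, the first or the second Id1KO, or any 1 Tet2KO library (0.0506 to 0.171). The rise from Tet2KO to dKO, 0.14 ± 0.03 (0.00383), held in all of them, and dKO differed from Id1KO by -0.06 ± 0.03 (0.196).

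Calls among known targets of Myc ran 1 way in each of the comparisons that involve Tet2KO. Of 16, which serve ribosome biogenesis, nucleotide and polyamine synthesis and glycolysis, 14 fell in Tet2KO (median log2 fold change -0.16) and 13 rose from Tet2KO to dKO (median 0.17), with no call in the opposite direction. In Id1KO against WT none of the 16 passed in edgeR, where 3 had an unadjusted p under 0.05 and the median was 0.01, and DESeq2 called 1. The interaction called 11 of them, all positive, and this count was 6 or 7 without the second or the third WT, the second or the third Tet2KO, the first or the third Id1KO, or the first or the third dKO library. Npm1, a nucleolar chaperone, fell by 0.15 log2 in Tet2KO and rose by 0.22 from Tet2KO to dKO. The mitochondrial chaperone gene Hspd1 had -0.28 and 0.34, and the translation helicase gene Eif4a1 -0.08 and 0.08, all called. Erythroid markers moved in the same directions in these comparisons, as described above, and their part in the list was not tested. Among 12 relatives and antagonists of Myc, 5 rose and 1 fell in Tet2KO (median 0.11), among them Mga, a repressor that competes for the Max partner, at 0.18 ± 0.03 (edgeR adjusted p = 0.000118).

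Calls among known targets of Spi1 and Cebpa were mostly upward in Tet2KO and all downward in Id1KO and from Tet2KO to dKO. Of 7 progenitor markers, 6 were higher and 1 lower in Tet2KO and 6 were lower from Tet2KO to dKO, erythroid markers ran the other way as given above, and their part in these lists was not tested. Of 14 known Spi1 targets, 6 rose and 1 fell in Tet2KO (median 0.24), 6 fell in Id1KO (median -0.07) and 8 fell from Tet2KO to dKO (median -0.15). Tyrobp, a signalling adaptor, was at 0.26, -0.21 and -0.21, and Laptm5, a lysosomal membrane protein, at 0.30, -0.13 and -0.26, all called. Fcgr3, an immunoglobulin receptor, differed by -0.06 in Tet2KO, fell by 0.28 in Id1KO and was -0.45 lower in dKO than in Tet2KO. From Id1KO to dKO the Spi1 list split, with 5 higher and 4 lower. Of 9 known Cebpa targets, 7 rose in Tet2KO (median 0.17), 3 fell in Id1KO (median -0.07) and 8 fell from Tet2KO to dKO (median -0.25). They include the primary granule genes Mpo, Elane and Ctsg, with 0.17, 0.04 and 0.09 in Tet2KO (Elane short of the threshold) and -0.39, -0.33 and -0.26 from Tet2KO to dKO.

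**Figure D4:**
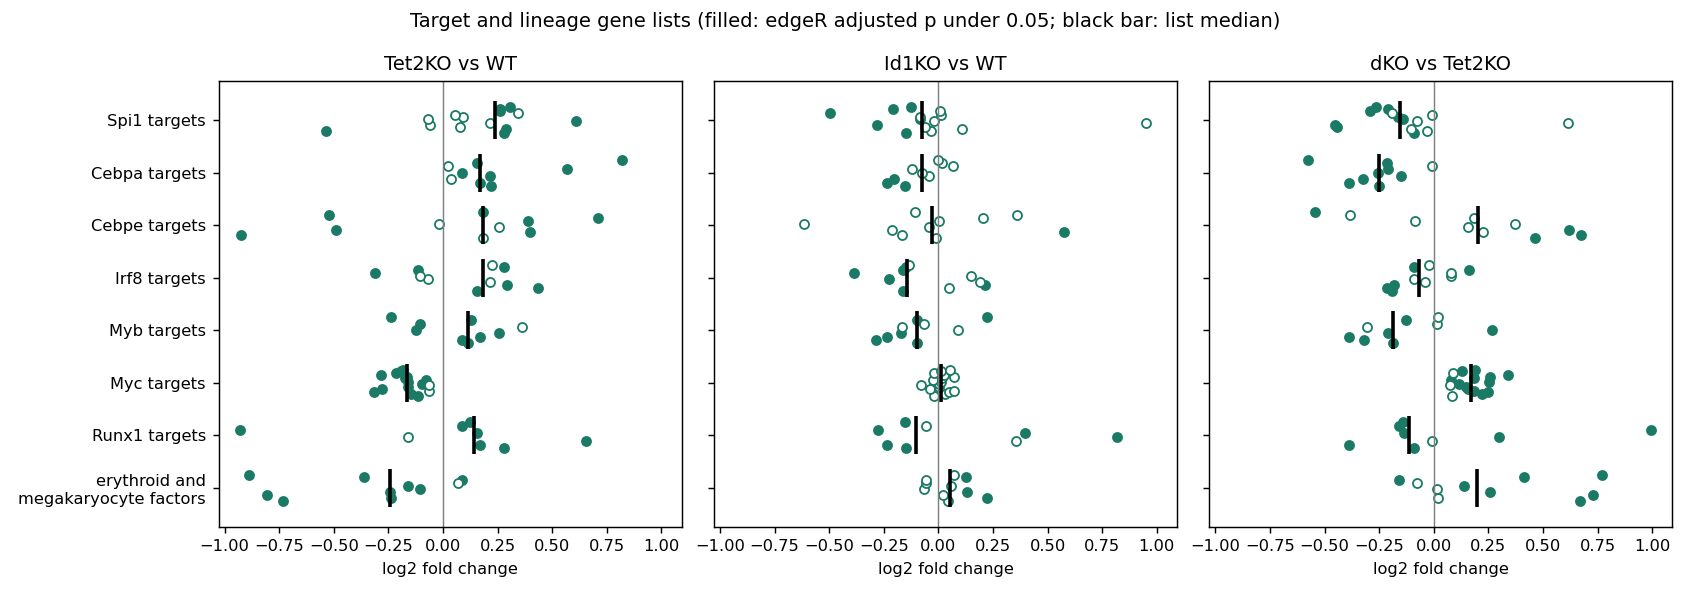
Log2 fold change of each tested gene (points) in the lists of known targets and of erythroid and megakaryocyte transcription factors, in 3 comparisons (panels), with the list median as a bar; filled points passed an edgeR adjusted p of 0.05. Of 16 Myc targets 14 fell in Tet2KO and 13 rose from Tet2KO to dKO, and of 9 Cebpa targets 7 rose and 8 fell in these comparisons.

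Other transcription factors give the setting of these changes. Among 14 ETS factors and partners of Spi1 and Etv6, 8 rose and 1 fell in Tet2KO (median 0.10) and 10 fell from Tet2KO to dKO (median -0.17). Fli1 and Elf1, ETS activators of blood and vessel genes, rose by 0.13 and 0.12 log2 in Tet2KO and fell by 0.16 and 0.11 from there to dKO, and Jun, a partner of Spi1, was lower than WT by -0.25 in Tet2KO, -0.36 in Id1KO and -0.43 in dKO. Among 10 erythroid and megakaryocyte factors, 8 fell and 1 rose in Tet2KO (median -0.24) and 6 rose and 1 fell from Tet2KO to dKO (median 0.20). Its 3 most abundant genes per kilobase were Klf1 at -0.80 and 0.73, Lmo2 at -0.10 and 0.01 and Lyl1 at 0.07 and -0.07, with Lmo2 short of the threshold in the second comparison and Lyl1 in both. Of 10 stem cell factors tested, 5 fell and none rose from Id1KO to dKO (median -0.30), while in Tet2KO 2 rose and 3 fell. Of 11 lymphoid factors, 4 rose and 1 fell in Tet2KO (median 0.43), with Notch1 up by 0.43 and Ikzf1, the Ikaros gene, down by 0.10. The all-gene medians in these comparisons lay within 0.01 of 0.

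The 2 effects of the Tet2 label, on an intact and on an Id1KO background, were then compared for each gene. Averaged over both backgrounds 9 of 10 genes passed in edgeR (34.8% of all genes), 5 higher (17.6%) and 4 lower (17.1%). Averaged over Tet2 backgrounds 6 passed for the Id1 label (28.7%), with Myc higher (13.9%) and Spi1, Cebpa, Runx1, Irf8 and Etv6 lower (14.7%). The interaction passed for 4 of 10 (14.5% of all genes). These were Cebpb, Cebpe and Gfi1 with a negative sign (7.03% of all genes) and Irf8 with a positive one (7.46%). Cebpe and Gfi1 fell with the Tet2 label on both backgrounds and by more on the Id1KO background. Irf8 rose with the Tet2 label on the Id1KO background, and Cebpb rose with it on the intact one. For Spi1, Cebpa, Runx1, Myb, Myc and Etv6 the interaction lay between -0.10 and 0.07 with standard errors of 0.03 to 0.05, which leaves room for differences of similar size. Etv6 passed at 0.0405 without the second dKO library.

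**Figure D5:**
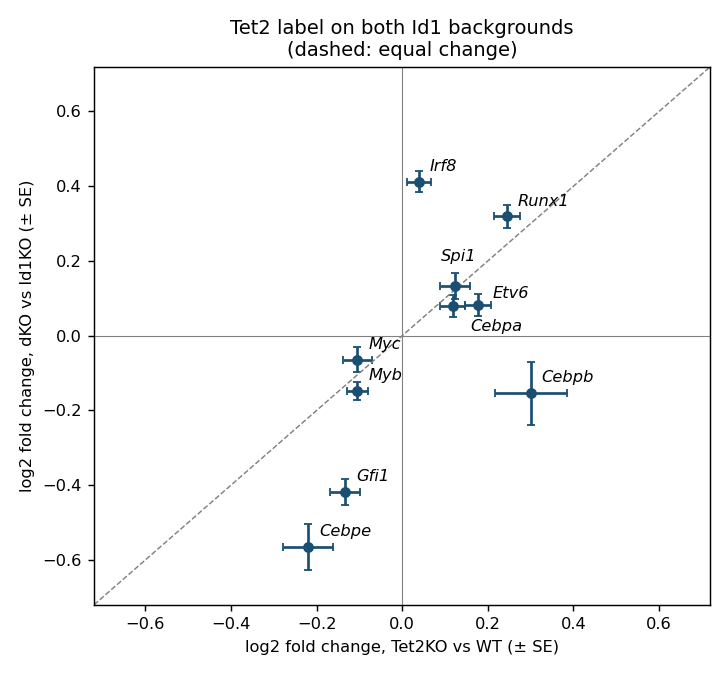
Log2 fold change of each gene with the Tet2 label on the intact background (horizontal axis, Tet2KO against WT) and on the Id1KO background (vertical axis, dKO against Id1KO), with bars of 1 standard error and the line of equal change. Irf8 lies above the line at 0.04 and 0.41, Cebpe and Gfi1 below it at -0.22 and -0.57 and at -0.13 and -0.42, and Cebpb at 0.30 and -0.15.

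The genes whose log2 levels ran most like each factor over the 12 libraries were ranked by Pearson correlation among 9784 genes with at least 5 CPM. Il11ra1 (0.981) and Ppp6r1 (0.976) were nearest to Spi1, Bex6 (0.974) and Anxa6 (0.973) to Cebpa, and Ern1 (0.979) and Hivep1 (0.972) to Etv6. After Gfi1, Cebpe was most like Neu1 (0.961), and Gfi1 was most like Dock9 (0.984) and Afap1 (0.968). Irf8 lay closest to the histone gene Hist1h4m (0.991) and to Clec7a (0.968), a fungal receptor of myeloid cells. Runx1 had Birc6 (0.993) and Ep400 (0.985), Myb had Vegfa (0.974) and Olr1 (0.972), Myc had Trmt61a (0.949) and Ralgapb (0.931), and Cebpb had Mgat2 (0.901) and Ankrd10 (0.875). The noisiest gene, Cebpb, thus had the weakest matches. Among pairs of the 10 genes, Cebpe with Gfi1 had the highest value, followed by Gfi1 with Myb (0.922), Cebpa with Etv6 (0.919), Spi1 with Cebpa (0.873), Cebpe with Myb (0.867) and Spi1 with Etv6 (0.844), and Myc ran against Cebpa (-0.903) and Etv6 (-0.878). With 4 genotypes behind 12 libraries, such values describe shared order among genotypes.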

How the data were processed

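The 12 libraries come as 1 table of gene-level estimated counts, deposited unnormalised, in which 4.92 to 5.26% of values per library were not whole. STAR, RSEM and the mm10 build are named, per the submitters' processing notes, with no versions. The annotation and the strand setting are not given in the sources used here. All 55450 gene identifiers matched GENCODE M21, used for positions and exon lengths. Counts were rounded, filtered with filterByExpr (minimum count 10; 14346 genes kept), scaled by TMM and tested with edgeR 4.0.16 (quasi-likelihood F test, all 12 libraries, 1 mean per genotype, Benjamini-Hochberg adjustment over all tested genes, threshold 0.05) in R 4.3.3. SE is the absolute log2 fold change divided by the square root of F, and CPM uses TMM library sizes. The fit was tested on simulated data. The common biological coefficient of variation was 0.0305.

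The 10 genes and all lists were chosen with earlier results of these data known. Named genes are the 10, Tet2, Id1, the 3 genes of each list with the most CPM per kilobase, and the 2 genes most like each of the 10 (log2 CPM, prior count 2). Lists were relatives and partners of the ETS, C/EBP, Runx1, Gfi1, interferon regulatory, Myb and Myc factors, known targets of Spi1, Cebpa, Cebpe, Irf8, Myb, Myc and Runx1, erythroid and megakaryocyte, stem cell and lymphoid transcription factors, and markers of Lin- Kit+ progenitors, lineage antigens, erythroid precursors, megakaryocytes, mature neutrophils, monocytes and dendritic cells, mast cells, basophils and eosinophils, lymphocytes and marrow stroma. Transcripts of the 10 genes were compared with all others (BLAST 2.17.0), and none shared 95% identity over 100 bases. Alternatives were other scalings and filters, DESeq2 1.42.0, a replicate block, fewer libraries, a stricter threshold and summed libraries. Figures used matplotlib 3.10.9.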

Additional observations from a re-analysis of the deposited data

Results flagged for a closer look

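The effect of the Tet2 label differed between the intact and the Id1KO background for 4 of the 10 genes, by the interaction term of the edgeR model. The difference of log2 fold changes was -0.45 for Cebpb (adjusted p = 0.0141), -0.35 for Cebpe (0.00932), -0.28 for Gfi1 (0.000559) and 0.37 for Irf8 (1.8e-06). Over all genes tested 14.5% passed this test. The term rests on the same 12 libraries as every other comparison and has no value in the model of summed libraries, which has no interaction.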

How the results depend on the processing

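The 10 genes were refitted under each alternative, giving 1670 values: 1617 kept their side of the threshold, 50 were no longer called and 3 became called. Of values called in either fit, 0 changed sign. Sign changes of values called in neither fit were not counted. Myb with the averaged Id1 label was such a value, at -0.001 in the main fit and 0.0014 with summed libraries. Scaling (RLE, upper quartile, or TMM without mitochondrial and small structural RNA genes), a stricter filter and fits of only the libraries compared changed no call. At an adjusted p under 0.01, WT was told apart from Tet2KO by 3122 genes, from Id1KO by 1085 and from dKO by 1557. The dKO libraries differed from Tet2KO in 2285 genes and from Id1KO in 1599, the interaction called 972, the averaged Tet2 label 3319 and the averaged Id1 label 2514, and 4 of the 10 genes passed for Id1KO against WT. DESeq2 called 1342 genes for the interaction. Leaving out 1 library gave 5 to 8 of the 10 genes for Id1KO against WT and 6 to 9 for Tet2KO against WT. Over all genes these fits called 1512 to 2386 and 3808 to 4964. With libraries summed per genotype, edgeR called 232 genes for the Tet2 label and 7 for the Id1 label, and 0 and 0 of the 10, of which 7 and 3 had an unadjusted p under 0.05, beside 2229 and 1428 of all 14346 genes. Replicate numbers paired the libraries only in part. Of 18 same-number pairs 9 had correlated deviations over 0.1 (range -0.34 to 0.379), and 7 of 12 libraries correlated best with their own number. Among WT, Tet2KO and dKO, pairs numbered 2 had 0.255 to 0.379 and pairs numbered 3 had 0.179 to 0.286. Pairs numbered 1 had -0.141 to 0.25 over all genotypes. Id1KO libraries 2 and 3 had -0.34 to -0.072 with their own numbers. The third Id1KO library had 0.214 to 0.588 with the second libraries of the other genotypes. The replicate block used the numbers as given, so for Id1KO libraries 2 and 3 it went against these correlations. With that block, Myc in Id1KO against WT had an edgeR adjusted p of 0.0552, and no other call of the 10 genes changed. Depth was not varied; of the 10 genes Cebpb had the fewest counts, 203 to 325 per library.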
